A study of Mus musculus with 6 samples.

Results

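A set of 55 genes of the glutathione, thioredoxin and Nrf2 antioxidant systems was examined in HC11 cells cultured with or without BMP7. Earlier results of these data were known when the set was chosen, though the members were taken from the deposited counts by name alone. They are the numbered glutathione transferases (*Gst* of the classes a, m, p, t, o, k and z, and *Mgst*), glutathione peroxidases (*Gpx*), peroxiredoxins (*Prdx*) and superoxide dismutases (*Sod*), together with *Txn1*, *Txnrd1*, *Txnrd2*, *Srxn1*, *Nqo1*, *Hmox1*, *Gclc*, *Gclm*, *Gsr*, *Cat*, *Nfe2l2* and *Keap1*. This gave 55 of the 55809 genes listed. Of these, 43 had at least 10 counts in at least 3 libraries and were compared between the groups, and the same 43 were among the 15733 genes tested.

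HC11 cells are an established mammary epithelial line of the mouse. The study treats it as a luminal line and asks how BMP7, a ligand made by basal cells, acts on luminal cells. The poly(A) RNA libraries are 3 from cells in medium with BMP7 and 3 from cells in medium without it (Ctrl), with no further treatment or genotype named in the labels. The methods describe HC11 cells that were starved before a shorter or a longer stimulation with BMP7 and do not name the one used for sequencing. The BMP7 libraries carry the numbers 1, 3 and 4 in the deposited counts, and the Ctrl libraries 1, 2 and 3. The titles of the BMP7 samples are numbered 1, 2 and 3, so these libraries were matched to their group and not to single samples. Replicate numbers below are those of the counts. Nothing states whether the libraries of a group came from separate cultures, so p-values measure the spread between these libraries, which may be technical.

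These genes encode the cell's main thiol-based defence against peroxides and electrophiles. Glutathione is made by glutamate-cysteine ligase and glutathione synthetase, is used by peroxidases and transferases, and is returned to its reduced form by glutathione reductase at the expense of NADPH. Thioredoxin and its reductases run a parallel system that feeds the peroxiredoxins, while superoxide dismutases convert superoxide to the hydrogen peroxide that catalase, peroxiredoxins and glutathione peroxidases remove. Many of the genes carry antioxidant response elements, where the transcription factor Nrf2 (encoded by *Nfe2l2*) binds with a small Maf protein. Keap1 holds Nrf2 for degradation until its cysteines are modified, so Nrf2 activity is set largely at the level of protein.

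The core of the antioxidant response element, TGACNNNGC, was searched on both strands from 250 bases before to 50 bases after the RefSeq start of each gene (GRCm38.p6). Of the 43 compared members 36 had an entry, and 9 of these (25%) held the core, as did 16.8% of the 10413 tested genes with an entry. The 9 are *Gclm*, *Gstm5*, *Gstm7*, *Mgst1*, *Nfe2l2*, *Prdx1*, *Sod1*, *Srxn1* and *Txnrd1*. Stretches of 29 bases from 5 of them are printed to show how the core sits in genes of the pathway described below. Each is given 5′ to 3′ on the strand that carries the core, which is in capitals. This is the strand of the gene itself for *Nfe2l2*, a gene on the minus strand, and the strand opposite the gene for the other 4.
Gclm, chr3:122245413-122245441: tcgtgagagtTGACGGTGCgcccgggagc
Prdx1, chr4:116685456-116685484: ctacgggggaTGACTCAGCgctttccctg
Txnrd1, chr10:82859104-82859132: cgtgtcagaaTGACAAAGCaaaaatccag
Srxn1, chr2:152105542-152105570: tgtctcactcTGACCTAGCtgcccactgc
Nfe2l2, chr2:75704885-75704913: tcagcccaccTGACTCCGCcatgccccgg
Counted along the gene, the core begins at -134 in *Gclm*, -133 in *Prdx1*, -92 in *Txnrd1*, 28 in *Srxn1* and -240 in *Nfe2l2*. *Gpx3*, *Gsto1* and *Gstm1* had an entry without these letters, and *Gsr*, *Gclc* and *Hmox1* were among the 7 compared members with none. A match is only a description of the window.

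Totals ran from 19858701 to 20327200 counts in Ctrl and from 14607938 to 23748970 with BMP7, and the members held 0.246% to 0.272% of them. All 5 genes checked for a BMP response rose with BMP7, with a median log2 fold change of 2.82. Among epithelial markers, levels per length (CPM, counts per 1000000 of TMM-scaled library size, per kb of exon) in Ctrl were highest for the basal keratins *Krt14* (1985) and *Krt5* (1203), against 32.3 for *Krt8* and 34.4 for *Krt18*, and *Krt19* was at most at 0.356 CPM in any library. *Epcam* (291) and *Cdh1* (215), which mark epithelium of either layer, were abundant, and the luminal claudins *Cldn4* (1.33) and *Cldn7* (0.623) were low. Near-identical copies were not searched for these markers, and fragments that fit several places were not counted. The level of any of them, *Krt8* and *Krt18* included, may therefore be too low. Of the 7 genes tested from the luminal list, which also holds *Epcam* and *Cdh1*, 3 fell with BMP7 (42.9%). Of the 6 tested from the basal list 3 rose (50%). Over all genes tested 5.38% were called lower and 5.99% higher. BMP7 replicates 3 and 4 stood apart from the other 4 libraries in markers of other cell types. The summed level of 10 adipocyte markers was 20.3, 12.1 and 12.2 CPM in Ctrl replicates 1, 2 and 3, 21.7 CPM in BMP7 replicate 1, and 73.9 and 64.3 CPM in BMP7 replicates 3 and 4. For 12 macrophage markers the sums were 58.7, 56.9 and 54.0 CPM in Ctrl, 54.7 CPM in BMP7 replicate 1, and 29.5 and 28.7 CPM in BMP7 replicates 3 and 4. All 7 adipocyte markers tested were higher with BMP7 and 4 of 9 macrophage markers lower, and none of either list was at 0 counts in all libraries. Fibroblast markers included 4 of 7 that rose and 1 that fell, while *Pecam1* of the endothelial list and *Cyp2e1* of the hepatocyte list, each the 1 gene of its list that was tested, rose. The erythroid list had 1 gene tested, which was not called, and 4 of 7 hepatocyte markers were at 0 counts throughout.

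With BMP7, 4 of the 43 antioxidant genes compared were called as changed. Calls needed an adjusted p under 0.05 together with a change of 1.2-fold or more, by edgeR's quasi-likelihood test and Benjamini-Hochberg adjustment over all genes tested. *Gsr*, *Gsto1* and *Gstm1* fell and *Gpx3* rose. The called members thus made up 9.30% of the 43, beside 11.4% of all genes. Those that fell made up 6.98%, beside 5.38% of all genes, and the single rise 2.33%, beside 5.99%. The median log2 fold change was -0.03 over the members and -0.01 over all genes tested. Summed over the members, the level was 2581 ± 30.8 CPM in Ctrl and 2614 ± 91.0 CPM with BMP7 (mean ± SD, n = 3 each). An exact two-sided permutation test gave p = 0.8, where the smallest p that 3 against 3 allows is 0.1. The sum is weighted to the most abundant members, such as *Txn1* (286 CPM in Ctrl), so it cannot show whether single members changed. It also includes *Gpx1* and *Gpx4*, whose counts cannot be read as their levels, as described below.

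The 95% intervals show how far the uncalled members were bounded. Their half-width over the 43 members had a median of 0.17 on the log2 scale and ran from 0.12 to 1.06. In 14 members (32.6%, beside 28.3% of all genes) the whole interval lay within a 1.2-fold change in either direction, and in 33 (76.7%, beside 66.4%) within a 1.5-fold change. The BMP7 libraries lay wholly above the Ctrl libraries in 3 members (6.98%, beside 14.8% of all genes) and wholly below in 9 (20.9%, beside 15.1%). The other 31 overlapped. Among the 9 are *Gpx1*, *Gstp1* and *Gstm1*, whose counts are limited by overlapping or near-identical genes, as described below.

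With BMP7 replicate 1 alone against the 3 Ctrl libraries, a fit added after the marker levels were seen and in which the lone library is assumed to vary like Ctrl, *Gsr* was the only member called lower. *Gpx2*, *Sod3* and *Txn1* were called higher. All genes tested in that fit were called higher in 4.41% and lower in 3.94%.

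**Figure D1:**
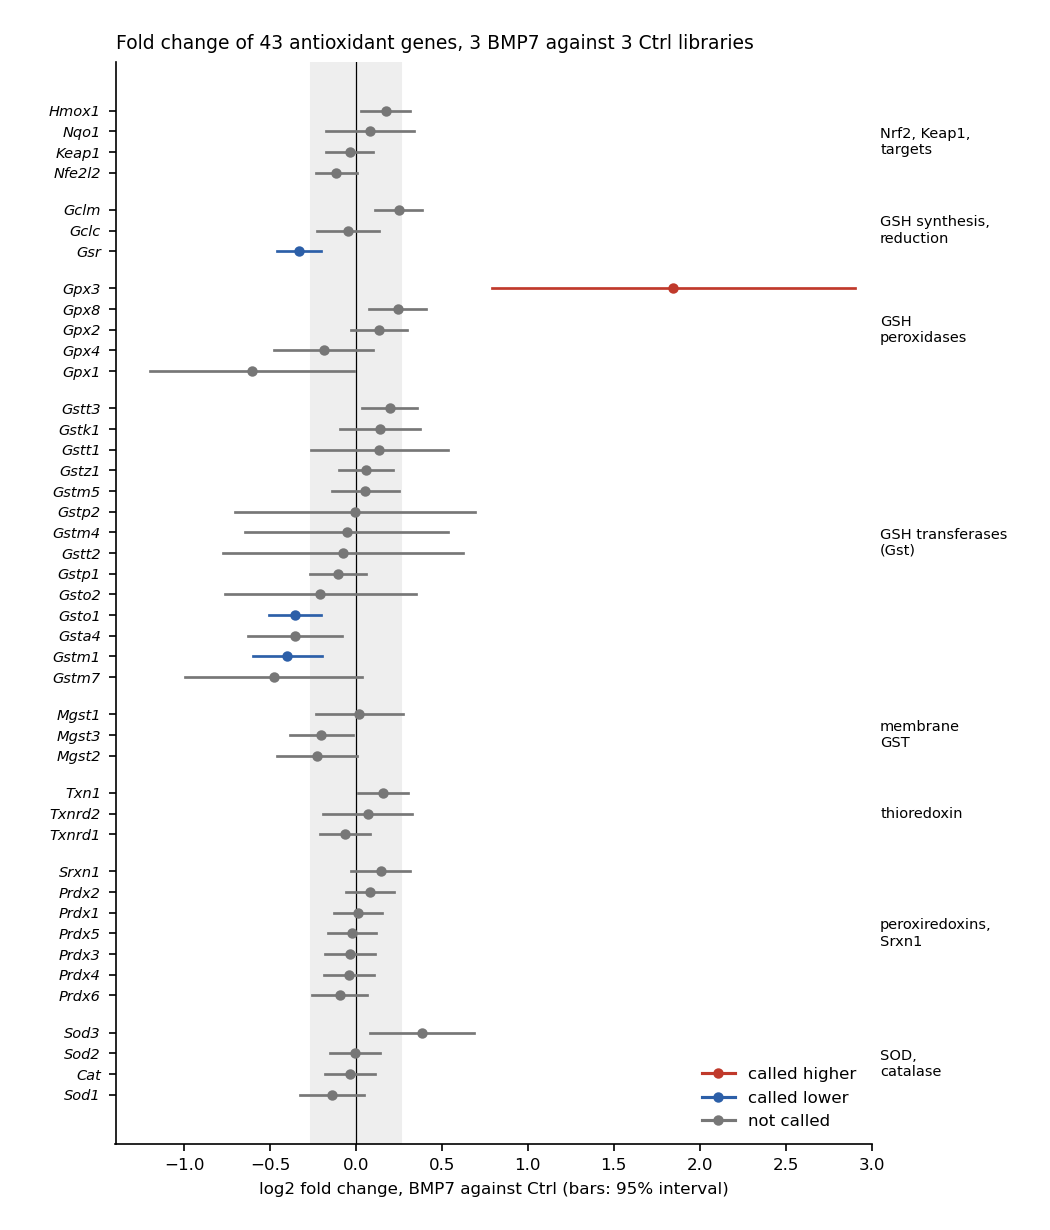
Log2 fold change of each of the 43 compared members, BMP7 against Ctrl, with its 95% interval as a bar (edgeR, n = 3 libraries per group). Genes are ordered within their class, the grey band marks a change under 1.2-fold, and only *Gpx3* (1.85) and the 3 genes in blue, *Gsr* (-0.33), *Gsto1* (-0.35) and *Gstm1* (-0.40), were called.

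*Nfe2l2*, *Keap1*, *Nqo1* and *Hmox1* differed little between the groups, and other Nrf2 targets are described below. *Nfe2l2* was at 118, 118 and 118 CPM in Ctrl replicates 1, 2 and 3 and at 108, 111 and 107 CPM in BMP7 replicates 1, 3 and 4. The BMP7 libraries were all lower, in a narrow range. The log2 fold change of -0.11 had a 95% interval from -0.24 to 0.01 and was not called (adjusted p = 0.216). *Keap1*, which encodes the adaptor that delivers Nrf2 to a ubiquitin ligase, was at 62.9, 62.4 and 60.1 CPM in Ctrl and 63.7, 58.6 and 58.7 CPM with BMP7, and the groups overlapped (log2 fold change -0.04, interval -0.17 to 0.10). Among Nrf2 targets, *Nqo1*, which reduces quinones, was at 8.24, 9.19 and 9.34 CPM in Ctrl and 9.13, 9.91 and 9.20 CPM with BMP7 (0.08, interval -0.18 to 0.34). *Hmox1*, which encodes the heme-degrading oxygenase, was at 111, 93.0 and 106 CPM in Ctrl and 119, 114 and 116 CPM with BMP7. All BMP7 libraries were above Ctrl, but the difference of 0.17 (interval 0.03 to 0.32) did not pass the test (adjusted p = 0.115). edgeR called none of these 4 genes, 1 of which had an unadjusted p under 0.05, and neither did DESeq2.

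The genes that make and recycle glutathione did not move as a group. *Gsr* encodes glutathione reductase, the NADPH-dependent enzyme that restores reduced glutathione (chr8:34142551-34188191, plus strand, in the mm39 coordinates of the deposited counts). Its level was 135, 135 and 139 CPM in Ctrl and 112, 102 and 111 CPM with BMP7, from 1601 to 2835 counts a library. The groups were well apart, and the gap was wider than the spread within either. The log2 fold change was -0.33 (SE 0.06, n = 3 each, adjusted p = 0.00114), or 0.794 of the Ctrl level. In the 14 alternatives that gave *Gsr* a value of its own it ran from -0.36 to -0.29. The call held in each of these that had replicates in both groups. None of its exon bases are shared with another gene, and no near-identical transcript was found.

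*Gclm*, the modifier subunit of glutamate-cysteine ligase, the rate-limiting enzyme of glutathione synthesis, went the other way. Its libraries were at 51.7, 55.3 and 56.1 CPM in Ctrl and 66.5, 64.0 and 63.3 CPM with BMP7, without overlap. The log2 fold change of 0.25 (SE 0.06, adjusted p = 0.0166) passed the p threshold but was under the 1.2-fold limit, so *Gclm* was not called. It was called without Ctrl replicate 3, at 0.27 (adjusted p = 0.0363). *Gclc*, the catalytic subunit, was at 49.9, 55.5 and 57.2 CPM in Ctrl and 52.1, 58.4 and 46.4 CPM with BMP7, and the groups overlapped (-0.05, interval -0.23 to 0.13).

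**Figure D2:**
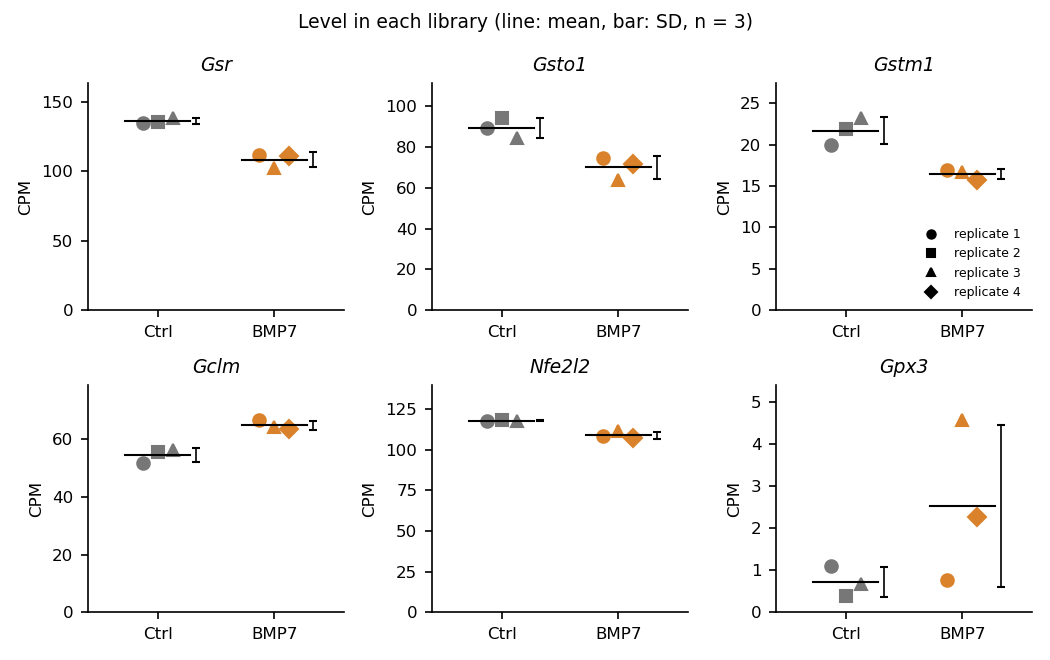
Level in CPM of 6 members in each library, with the mean as a line and the SD as a bar (n = 3 per group), and marker shapes for the replicate number. The BMP7 libraries lie wholly below Ctrl for *Gsr*, *Gsto1*, *Gstm1* and *Nfe2l2* and wholly above for *Gclm*, while for *Gpx3* BMP7 replicate 1 lies among the Ctrl libraries.

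Glutathione transferases couple glutathione to electrophiles, and 14 of the 23 soluble ones were measured well enough to compare. *Gsto1* and *Gstm1* fell and the other 12 were not called. *Gsto1* encodes the omega-class enzyme, which also reduces dehydroascorbate (chr19:47843409-47853229, plus strand, mm39). It was at 89.1, 94.3 and 84.3 CPM in Ctrl and 74.5, 63.9 and 71.4 CPM with BMP7, so every BMP7 library was below every Ctrl library. The log2 fold change was -0.35 (SE 0.07, adjusted p = 0.00274), or 0.782 of the Ctrl level. The call held with each library left out in turn, from -0.40 to -0.29, and with BMP7 replicate 1 alone the value was -0.26.

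*Gstm1* is a mu-class transferase (chr3:107919571-107925289, minus strand, mm39). Its libraries were at 20.0, 21.9 and 23.3 CPM in Ctrl and 16.9, 16.7 and 15.8 CPM with BMP7, again without overlap. The log2 fold change of -0.40 (SE 0.09, adjusted p = 0.00887) was the larger of the transferase falls that were called. Without Ctrl replicate 3 it was -0.35 (adjusted p = 0.0534), and with BMP7 replicate 1 alone -0.36. A stretch covering 51% of its longest transcript in GENCODE vM21 has a near-identical copy in the pseudogene *Gstm2-ps1*, so fragments may be split between them. Added together, the pair stood at 25.2 ± 1.72 CPM in Ctrl and 18.4 ± 0.680 CPM with BMP7 (exact two-sided p = 0.1, the smallest possible).

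The 12 uncalled soluble transferases had log2 fold changes from -0.48 in *Gstm7* to 0.19 in *Gstt3*. *Gsta4*, which acts on hydroxynonenal from oxidized lipids, was at 11.2, 15.2 and 13.3 CPM in Ctrl and 11.01, 9.56 and 10.6 CPM with BMP7, all below Ctrl (-0.36, adjusted p = 0.0811). It was called lower without Ctrl replicate 1, at -0.46 (adjusted p = 0.0325). *Gstt3*, of the theta class, was at 36.1, 32.8 and 31.7 CPM in Ctrl and 38.3, 38.8 and 38.0 CPM with BMP7, all above (adjusted p = 0.101). *Gstp1* was at -0.10 and *Gstp2* at -0.01, but 86.1% and 88.7% of their transcripts match another *Gstp* gene or pseudogene. With *Gstp-ps* added, the pi-class sum was 86.8 ± 2.13 CPM in Ctrl and 90.0 ± 4.52 CPM with BMP7 (exact two-sided p = 0.4). *Gstk1* (0.14), *Gstt1* (0.13), *Gstz1* (0.06), *Gstm5* (0.05), *Gstm4* (-0.05), *Gstt2* (-0.08) and *Gsto2* (-0.21) all overlapped between the groups.

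The 9 soluble transferases that were not compared were at or near the counting floor in this line. *Gsta3* reached 15 counts in 1 library and *Gstm2* reached 11, while *Gsta2* and *Gstm6* reached 4, *Gsta5* 3, *Gsta1* and *Gstt4* 2, and *Gstm3* and *Gstp3* 1. *Gsta1* and *Gsta2* match near-identical genes over their whole transcripts, and fragments that fit several places were not counted, so their counts may be too low. The membrane-bound transferases, enzymes of the MAPEG family, were compared for all 3 genes. *Mgst3* was at -0.20 (adjusted p = 0.145), *Mgst2* at -0.23 and *Mgst1* at 0.02. edgeR and DESeq2 called none of them, and 1 had an unadjusted p under 0.05 in edgeR. *Mgst3* was called lower without BMP7 replicate 1, at -0.29 (adjusted p = 0.0312).

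The glutathione peroxidases gave the single rise. *Gpx3* encodes the secreted, selenium-containing peroxidase of plasma (chr11:54793279-54801203, plus strand, mm39). Its counts were 23, 8 and 14 in Ctrl replicates 1, 2 and 3 and 11, 103 and 41 in BMP7 replicates 1, 3 and 4, which is 1.11, 0.393 and 0.685 CPM against 0.767, 4.58 and 2.26 CPM. BMP7 replicates 3 and 4 were above all Ctrl libraries, and BMP7 replicate 1 was within their range. The log2 fold change was 1.85 (SE 0.50, interval 0.79 to 2.90, adjusted p = 0.0202). It was lost without BMP7 replicate 3 (1.09, adjusted p = 0.226), without Ctrl replicate 2 (1.55, adjusted p = 0.116) and without Ctrl replicate 3 (1.80, adjusted p = 0.0534). With BMP7 replicate 1 alone it was 0.07. The 2 libraries with a high *Gpx3* are the 2 in which adipocyte markers were high and macrophage markers low. All 7 adipocyte markers tested were called higher, such as *Car3* (6.74, 3.15 and 3.57 CPM in Ctrl, and 6.62, 24.4 and 23.7 CPM with BMP7). Their part in the *Gpx3* result was not tested, and in bulk RNA fewer or more cells of a type cannot be told apart from less or more RNA per cell.

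**Figure D3:**
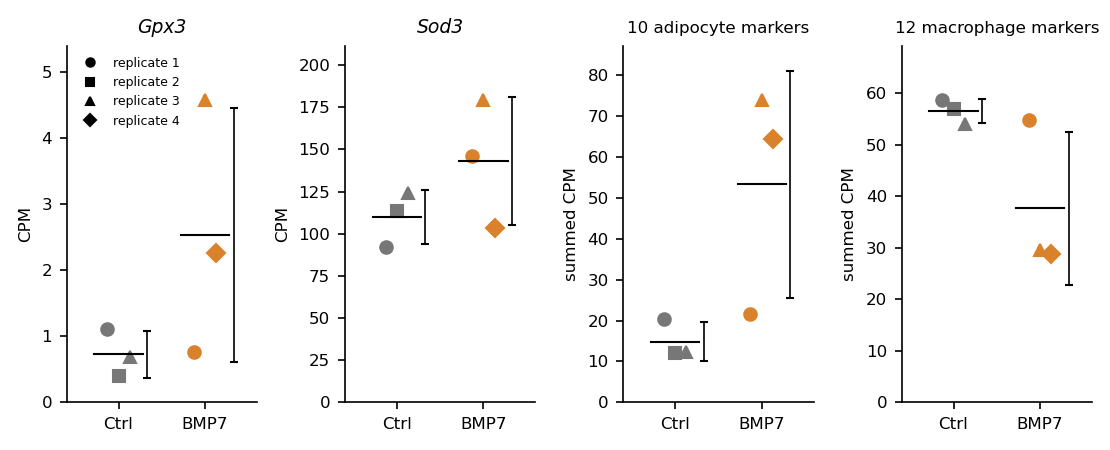
Levels in CPM of *Gpx3* and *Sod3* and summed CPM of 10 adipocyte and 12 macrophage markers in each library (line, mean; bar, SD; n = 3 per group). BMP7 replicates 3 and 4 are high in *Gpx3* and in adipocyte markers (73.9 and 64.3 CPM) and low in macrophage markers (29.5 and 28.7 CPM), and BMP7 replicate 1 sits near Ctrl in these 3 panels.

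The other 4 peroxidases compared were not called. *Gpx8*, of the endoplasmic reticulum, was at 48.7, 52.4 and 48.2 CPM in Ctrl and 59.5, 64.4 and 52.4 CPM with BMP7, and BMP7 replicate 4 fell just short of the highest Ctrl library (0.24, adjusted p = 0.0521). Without BMP7 replicate 4 it was called, at 0.32 (adjusted p = 0.0102). *Gpx2*, the gastrointestinal form, was at 77.8, 84.8 and 77.3 CPM in Ctrl and 99.0, 83.9 and 81.2 CPM with BMP7, with BMP7 replicate 1 above the rest (0.14, adjusted p = 0.285). With BMP7 replicate 1 alone the log2 fold change was 0.31.

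The counts of *Gpx1* and *Gpx4*, the ubiquitous peroxidases of hydrogen peroxide and of phospholipid hydroperoxides, cannot be read as their levels. In the deposited annotation 84% of the exon bases of *Gpx1* lie in a gene on the opposite strand, and fragments over both were not counted because strand was not used. *Gpx1* had a mean of 2.33 ± 0.475 CPM in Ctrl and 1.54 ± 0.362 CPM with BMP7 (-0.61, interval -1.20 to -0.01, adjusted p = 0.182). For *Gpx4*, a copy of 73.7% of its transcript lies in *Gpx4-ps2*, which drew 2001 to 3174 counts a library. The sum of *Gpx4* and *Gpx4-ps2* was 133 ± 6.46 CPM in Ctrl and 143 ± 9.50 CPM with BMP7 (exact two-sided p = 0.3), whereas the counts given to *Gpx4* itself had a log2 fold change of -0.19. *Gpx7* had at most 1 count, and *Gpx5* and *Gpx6* had 0 in every library.

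The cytosolic thioredoxin gene *Txn1* was the most abundant member per length. It was at 300, 284 and 274 CPM in Ctrl and 346, 293 and 319 CPM with BMP7, with BMP7 replicates 1 and 4 above all Ctrl libraries. Its log2 fold change was 0.16 (interval 0.01 to 0.30, adjusted p = 0.148). With BMP7 replicate 1 alone the log2 fold change was 0.27. The pseudogene *Txn-ps1* matches 29.3% of its transcript. *Txnrd1*, the cytosolic reductase and a Nrf2 target, was at 83.8, 92.4 and 82.1 CPM in Ctrl and 85.4, 84.4 and 77.3 CPM with BMP7 (-0.06, interval -0.21 to 0.08), and *Txnrd2*, the mitochondrial reductase, had a low level (11.01 ± 0.565 CPM in Ctrl) and a log2 fold change of 0.07. No gene of these 3 was called by edgeR, which gave 1 an unadjusted p under 0.05, or by DESeq2.

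In the peroxiredoxins the differences were small. All 6 *Prdx* genes and *Srxn1*, which encodes the sulfiredoxin that repairs overoxidized peroxiredoxins, overlapped between the groups, and none was called by edgeR or DESeq2 or had an unadjusted p under 0.05 in edgeR. *Prdx1* was at 235, 236 and 208 CPM in Ctrl and 237, 216 and 231 CPM with BMP7 (0.01, interval -0.13 to 0.15). In 6 of these 7 genes the 95% interval lay within a 1.2-fold change. The exception was *Srxn1*, at 40.5, 42.3 and 35.99 CPM in Ctrl and 46.7, 40.4 and 44.5 CPM with BMP7 (0.14, interval -0.03 to 0.31). *Prdx2* (0.08), *Prdx5* (-0.02), *Prdx3* (-0.04), *Prdx4* (-0.04) and *Prdx6* (-0.10) made up the rest. *Prdx1* and *Prdx2* match pseudogenes over 26% and 37% of their longest transcripts.

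Of the superoxide dismutases and catalase, *Sod3*, the extracellular enzyme, varied most. It was at 92.1, 114 and 124 CPM in Ctrl and 146, 179 and 104 CPM with BMP7, so BMP7 replicates 1 and 3 were above Ctrl and replicate 4 was within it (0.38, interval 0.08 to 0.68, adjusted p = 0.0912). It was called without BMP7 replicate 4, at 0.57 (adjusted p = 0.00238), and stood at 0.41 with BMP7 replicate 1 alone. *Cat* was at 211, 224 and 234 CPM in Ctrl and 217, 236 and 201 CPM with BMP7, and the groups overlapped (-0.03, interval -0.18 to 0.11). The mitochondrial *Sod2* (-0.01) and the cytosolic *Sod1* (-0.14) overlapped as well. edgeR and DESeq2 called none of these 4, and 1 had an unadjusted p under 0.05 in edgeR.

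Levels of different genes were set side by side per length of exon. In Ctrl the mean was highest for *Txn1*, at 272 CPM per kb of exon, followed by *Cat* (85.4), *Prdx1* (74.3), *Hmox1* (59.0), *Prdx2* (50.7), *Gsr* (49.5) and *Gpx8* (47.5). *Prdx2*, *Gsr* and *Gpx8* lie close enough that their libraries interleave. *Gsto1* led the soluble transferases at 44.1 and *Mgst3* the membrane-bound ones at 29.7. With BMP7 *Gpx8* stood at 56.1, *Gsr* at 39.3 and *Gsto1* at 34.6 CPM per kb. The lowest compared members in Ctrl were *Gstt2* (0.309) and *Gpx3* (0.402). Exon length is summed over all annotated transcripts, so a gene with long unused exons is placed too low. *Gpx1* and *Gpx4* have no place in this order, since their counts cannot be read as levels, and members with near-identical copies may also be placed too low.

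**Figure D4:**
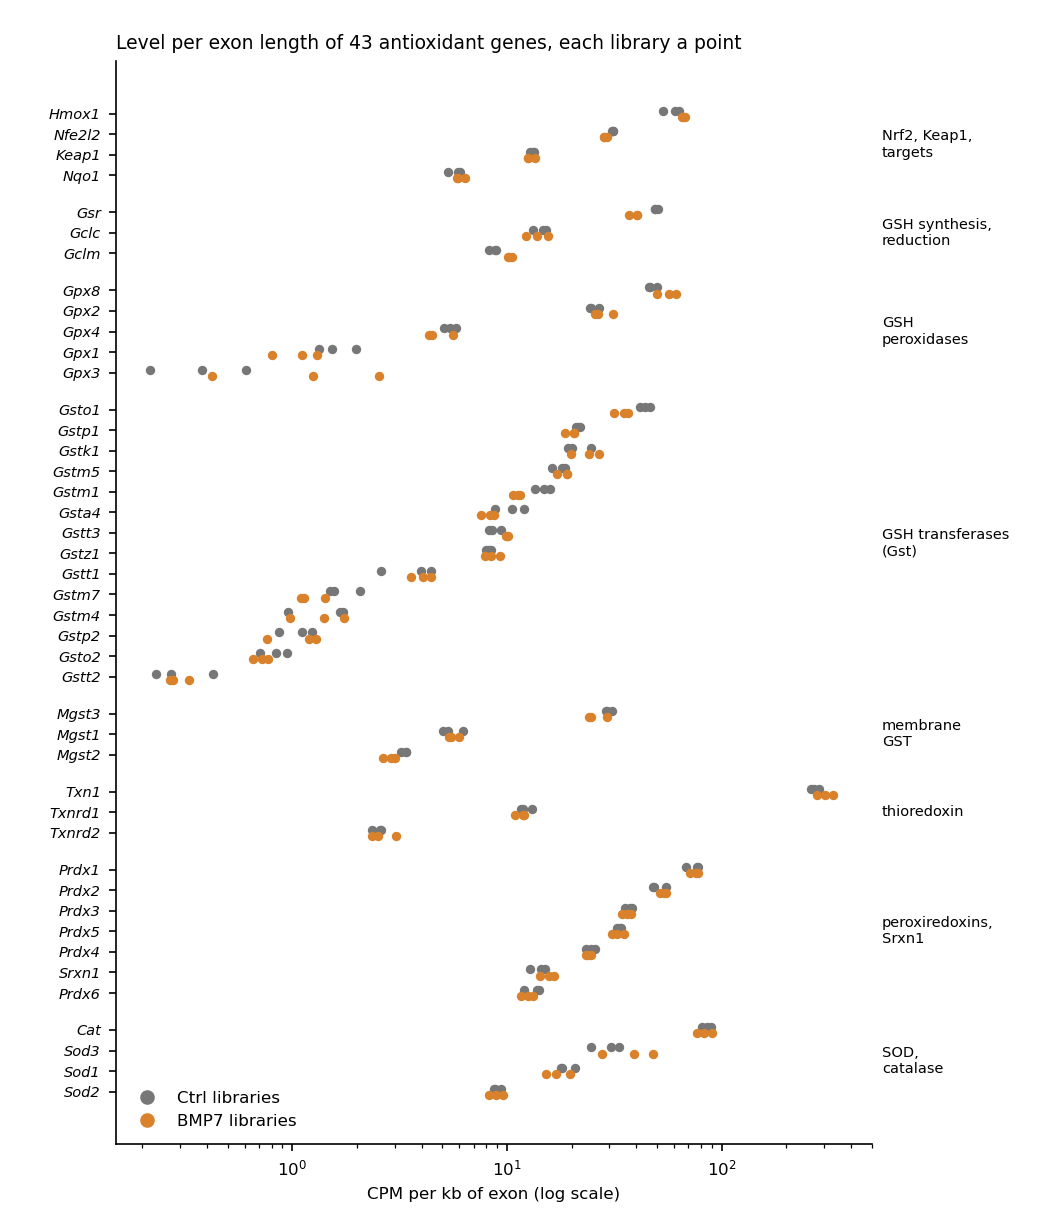
Level in CPM per kb of exon (log scale) of the 43 compared members, each point a library (grey, Ctrl; orange, BMP7), ordered within class by the Ctrl mean. *Txn1* is highest at 272 CPM per kb in Ctrl, and the BMP7 and Ctrl points overlap for 31 of the 43 genes.

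Genes around these systems were read from lists chosen by function. Beside the background of 5.99% higher and 5.38% lower, 5 of 25 other Nrf2 targets and partners fell (20%), and the list's median log2 fold change was -0.12. *Ephx1*, microsomal epoxide hydrolase, went from 50.9 ± 2.27 to 35.2 ± 2.49 CPM (-0.54, adjusted p = 8.8e-05). *Aldh3a1*, an aldehyde dehydrogenase, was at -0.83 (adjusted p = 0.0256), *Osgin1* at -0.44 (adjusted p = 0.0291) and *Abcc4*, an exporter, at -0.32 (adjusted p = 0.0104). *Mafg*, a small Maf partner of Nrf2, was at -0.27 (adjusted p = 0.006) and was named after its value was seen. The count was 2 without Ctrl replicate 1 and 2 without BMP7 replicate 3. The calls of *Aldh3a1* (adjusted p from 0.0528 to 0.166) and *Osgin1* (from 0.0614 to 0.134) were each lost without 4 libraries in turn, which were Ctrl replicate 1 and BMP7 replicates 3 and 4 for both, with BMP7 replicate 1 for the first and Ctrl replicate 3 for the second.

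Among 42 other glutathione and thioredoxin genes 3 rose (7.14%) and 1 fell (2.38%), and the median was 0.01. *Ggt1*, the enzyme that cleaves extracellular glutathione, went from 2.97 ± 0.479 to 7.11 ± 0.258 CPM (1.26, adjusted p = 6.7e-05), and *Ggt6*, of the same family, from 14.3 ± 0.856 to 5.99 ± 0.316 CPM (-1.25, adjusted p = 1.6e-06). *Clic4*, a chloride channel protein with the fold of a glutathione transferase, rose from 357 ± 6.89 to 622 ± 18.6 CPM (0.80, adjusted p = 7.2e-08). *Chac1*, which degrades cytosolic glutathione, was at 0.43 (adjusted p = 0.0297) and lost its call without Ctrl replicate 1 or 3 or BMP7 replicate 1 or 3 (adjusted p from 0.0591 to 0.119). A second fall was counted without Ctrl replicate 1, Ctrl replicate 3 or BMP7 replicate 1, which gave 2 in each case. The number that rose ran from 2 to 4 with libraries left out in turn.

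Genes that supply NADPH, the reductant for *Gsr* and the thioredoxin reductases, included 2 of 19 that rose and 1 that fell (median -0.02). *G6pdx*, the entry enzyme of the pentose phosphate pathway, went from 132 ± 7.36 to 169 ± 12.2 CPM (0.35, adjusted p = 0.00176) and *Me1*, cytosolic malic enzyme, from 30.0 ± 2.39 to 42.6 ± 1.79 CPM (0.51, adjusted p = 0.00027). *Rpia*, ribose-5-phosphate isomerase, fell from 26.2 ± 1.13 to 18.7 ± 0.456 CPM (-0.49, adjusted p = 0.00077). The number that fell was 3 without BMP7 replicate 1 and 2 without Ctrl replicate 3 or BMP7 replicate 4. Of 23 selenoprotein genes and genes that insert selenocysteine 1 rose, *Selenon*, from 58.8 ± 3.55 to 88.4 ± 2.40 CPM (0.59, adjusted p = 9.5e-06), with a median of 0.04 over the list. The count was 2 without BMP7 replicate 4.

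A list of oxidases and their subunits, which make superoxide or hydrogen peroxide, also held peroxidases, which use it. Of 16 genes tested 4 fell (25%), all oxidases or oxidase subunits, and the 1 that rose, *Pxdn*, is a peroxidase. The median was -0.25. *Duox2*, a dual oxidase that releases hydrogen peroxide, was at 6.16, 8.50 and 8.17 CPM in Ctrl and 1.81, 2.40 and 2.20 CPM with BMP7 (-1.81, adjusted p = 5.1e-06). *Aox1*, aldehyde oxidase, went from 11.1 ± 1.51 to 6.44 ± 1.48 CPM (-0.77, adjusted p = 0.00406). *Cybb*, the catalytic subunit of the phagocyte NADPH oxidase, was at 4.57, 4.42 and 4.35 CPM in Ctrl and 3.62, 1.11 and 0.936 CPM with BMP7, the low values being those of the 2 libraries low in macrophage markers. Its log2 fold change of -1.32 (adjusted p = 0.0174) was -0.29 with BMP7 replicate 1 alone. Its adjusted p was 0.176 in DESeq2, and 0.0524 to 0.0897 without Ctrl replicate 1 or 2 or BMP7 replicate 3 or 4. *Noxo1*, an organizer of NADPH oxidase, was at -0.69 (adjusted p = 0.0305), shares 70.4% of its exon bases with *Tbl3*, and lost its call without any of the Ctrl replicates or BMP7 replicate 3 (adjusted p from 0.0679 to 0.145). *Pxdn*, which encodes peroxidasin, rose from 206 ± 12.9 to 298 ± 17.7 CPM (0.53, adjusted p = 2.8e-05). With libraries left out in turn the number that fell ran from 2 to 5, and was 2 without Ctrl replicate 1, Ctrl replicate 2 or BMP7 replicate 3. The number that rose was 2 without Ctrl replicate 2.

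Of 13 metallothionein and iron genes 2 rose and 2 fell (15.4% each), with a median of -0.13. The number that fell ran from 1 to 3 with libraries left out in turn. *Steap4*, a metalloreductase, rose from 75.6 ± 3.999 to 141 ± 16.8 CPM (0.90, adjusted p = 6.0e-07) and *Slc39a14*, a zinc and iron importer, from 67.4 ± 2.70 to 93.2 ± 4.60 CPM (0.47, adjusted p = 8.0e-05). *Cp*, ceruloplasmin, fell from 756 ± 36.9 to 558 ± 20.7 CPM (-0.44, adjusted p = 0.00012). *Slc11a2*, an iron transporter, was at -0.28 (adjusted p = 0.0248) and lost its call without Ctrl replicate 1 or 2 or BMP7 replicate 3 (adjusted p from 0.0638 to 0.136), which left 1 fall in each case.

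**Figure D5:**
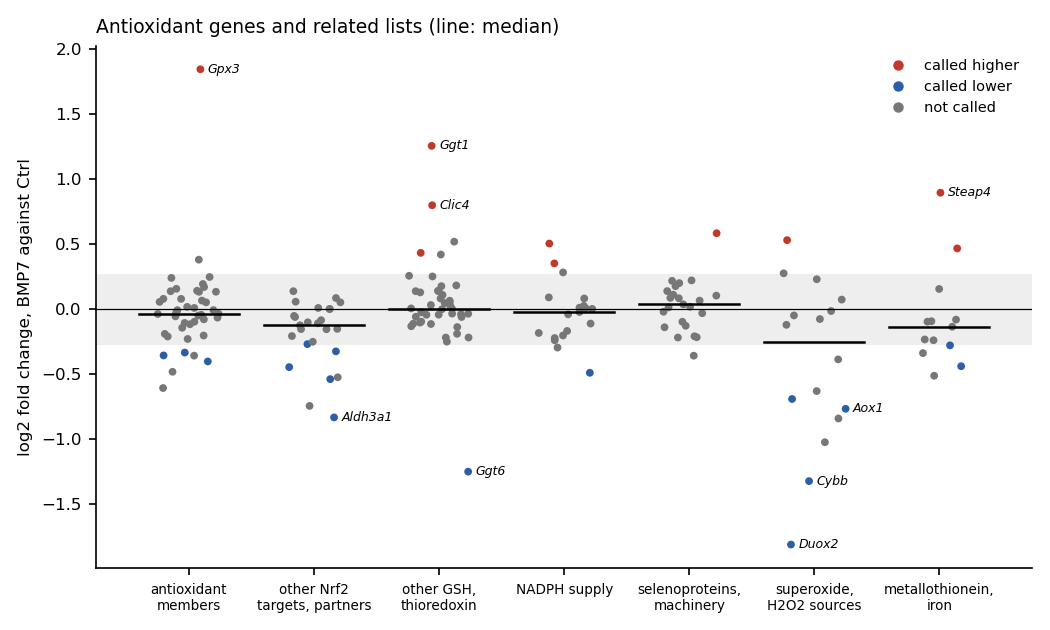
Log2 fold change, BMP7 against Ctrl, of the 43 compared antioxidant members and of the tested genes of 6 related lists, each point a gene and the line the median (-0.03 for the members, -0.12 for other Nrf2 targets and partners and -0.25 for oxidases and peroxidases, labelled superoxide, H2O2 sources). The grey band marks a change under 1.2-fold, and labels name the genes with the largest called changes.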

How the data were processed

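The authors aligned the reads with subjunc, assigned fragments to gene names by featureCounts, and deposited whole-number counts, not normalized, for 6 libraries. The methods name mm10 for alignment and GENCODE vM30 as annotation, the header of the counts names an mm39 annotation and featureCounts 2.0.1, and the submitters' processing notes list Subread 2.0.3. Counting ignored strand and left out fragments that mapped to several places or genes. BMP7 columns were matched to their group by name.

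Counts were tested in R 4.3.3 with edgeR 4.0.16 (expression filter, TMM, quasi-likelihood), and DESeq2 1.42.0 was an alternative. CPM used TMM-scaled library sizes without a prior count, and SE is the log2 fold change over the square root of F. Exact tests of summed levels compared all splits of 3 against 3. Replicates differed by more than counting noise (chi-square per degree of freedom 5.00 to 11.8). Alternatives were other scalings and filters, an adjusted p alone, a fold of 1.5, each library left out, a replicate block, and BMP7 replicate 1 alone. The tests were tried on simulated data first.

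Copies were searched with BLAST 2.17.0 in GENCODE vM21 transcripts (GRCm38) at 95% identity over at least 100 bases, where 54 of 55 members were found. Promoter sequence is RefSeq's, on GRCm38.p6, and was not joined to mm39 coordinates.

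Every called member and the most abundant member of each class is named, others with their fold change, uncompared members with their highest count, and from other lists the called genes with the 4 largest rises and 4 largest falls. Other genes were named after their values were seen. Members and lists were chosen with earlier results of these data known.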

Additional observations from a re-analysis of the deposited data

How the results depend on the processing

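Direction of *Gsr* held under every alternative that gave it a value of its own. Its call held under each of these with replicates in both groups. With a fold limit of 1.5 in place of 1.2, 476 genes were higher and 304 lower, and 0 members were lower in edgeR. In the main edgeR fit 13 members had an unadjusted p under 0.05. The share of all genes under that p was not counted, so the 13 cannot be read as many or few. DESeq2 at the 1.2-fold limit called the same 4 members. Leaving out each library in turn gave 723 to 1081 genes higher and 563 to 902 lower, the fewest lower without Ctrl replicate 2, and 0 to 3 members higher and 2 to 4 lower. The 0 came without Ctrl replicate 2 and without BMP7 replicate 3, and the 3 without BMP7 replicate 4. Members higher numbered 2 without a filter on low counts, where *Sod3* was added, and 2 by adjusted p alone. They numbered 0 with at least 10 counts in every library, where *Gpx3* was not tested.

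Ctrl and BMP7 libraries share only the numbers 1 and 3. Deviations from the group means had a correlation of -0.01 for number 1 and 0.12 for number 3. The latter was the highest of all Ctrl and BMP7 pairs, and pairs of unlike number ran from -0.08 to 0.096. With so few libraries these values cannot settle whether any were paired, and the main fit treats them as unpaired. A replicate block gave 3 members higher (*Gclm*, *Gpx8* and *Sod3*), with *Gpx3* at 1.35 (adjusted p = 0.0896), and changed the sign of 8 uncalled members, among them *Gclc* (0.046), *Txnrd1* (0.034) and *Cat* (0.025). Ctrl replicate 2 and BMP7 replicate 4 each stood alone in a block. The fold changes of that fit therefore rest on the libraries numbered 1 and 3.

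No called member changed sign in any of these fits. With BMP7 replicate 1 alone 9 uncalled members did, *Keap1* (0.046), *Gpx4* (0.05), *Sod1* (0.06), *Gstt1* (-0.04), *Gstz1* (-0.06), *Gstp2* (0.16), *Prdx4* (0.01), *Prdx5* (0.08) and *Mgst1*. Upper-quartile scaling turned *Prdx1* (-0.0073) and DESeq2 *Gstp2*, and leaving out a library turned 1 to 7 uncalled members. With libraries left out in turn, *Prdx1* ran from -0.045 to 0.051, *Cat* from -0.095 to 0.020 and *Gclc* from -0.14 to 0.031. The cause was not tested. The interval of *Gpx3*, with 8 to 23 counts a library in Ctrl, was the widest of the 43.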
